A study of Mus musculus with 2 samples.

Results

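The nuclear genes for oxidative phosphorylation were described by the H3K4me1 around their transcription start sites (TSSs) in E14TG2a.4 cells. Members were all protein-coding genes of the mm10 genome whose symbol begins with Ndufa, Ndufb, Ndufc, Ndufs, Ndufv, Uqcr, Atp5 or Cox followed by 4 to 8, or is Sdha, Sdhb, Sdhc or Sdhd. This gave 96 of 21506 genes: 85 subunit genes of complexes I to V, 8 Ndufaf assembly factors and 3 other matches. E14TG2a.4 is a line of pluripotent cells from a male 129/Ola mouse embryo, with an age given as 3.5 days, and its parent line E14TG2a is known for lacking Hprt. H3K4me1, monomethylation of lysine 4 on histone H3, was mapped by chromatin immunoprecipitation and sequencing in 2 biological replicates, which form the only group. The labels name no treatment, both replicates are of the same line, and no control library was analysed here. All values below therefore describe these 2 libraries, and no test between conditions was possible.

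Oxidative phosphorylation couples the oxidation of NADH and succinate to ATP synthesis in the inner mitochondrial membrane. Complexes I and II pass electrons to ubiquinone, complex III passes them to cytochrome c, complex IV passes them to oxygen, and complex V, the ATP synthase, uses the proton gradient that complexes I, III and IV build. Most subunits are encoded in the nucleus and a few in mitochondrial DNA, which is not packaged in histones and is not part of the gene set. Several complex IV subunits exist as a general form and a form restricted to muscle, lung or testis. H3K4me1 is found at enhancers and on both sides of active promoters, with trimethylation of the same lysine nearer the TSS. Trimethylation was not measured here.

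Coverage is the share, in percent, of the window from 20 kb before to 20 kb after a TSS that lies in the authors' peaks of a replicate. It is given for each replicate or as the mean ± SD (n = 2). For a group of genes, a single median is taken over the genes' means of both replicates. The SD beside it is that of the 2 replicate medians. Their mm10 lists held 313453 peaks in replicate 1 and 325226 in replicate 2, and 226060 peaks in the list they kept as replicated. Peak lists hold no read counts, so the depth of both libraries is unknown, and a mark in some of the cells cannot be told apart from a weaker mark in all of them. As a check of the label, 7 of 7 stem cell marker genes had a replicated peak within 2 kb, against 72.8% of all genes. So had 4 of 4 trophectoderm, 3 of 3 muscle and 5 of 7 fibroblast markers, so such a peak does not tell these cell types apart. Median coverage was 63.1% for the stem cell, 40.5% for the trophectoderm, 13.2% for the muscle and 21.4% for the fibroblast markers. The fibroblast markers Col3a1 and Dcn had no covered base, while the other 5 of 7 ranged from 4.60% to 39.8%, and the 4 trophectoderm markers from 4.30% to 49.8%. Marker genes of other cell types were thus not all free of the mark, and coverage is no measure of expression.

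Median coverage of the 96 members was 25.2% in replicate 1 and 26.6% in replicate 2. Over the members' means of both replicates it was 25.7% ± 1.03 (SD of the replicate medians, n = 2). Over all 21506 genes the median was 14% and 13.7%, and 13.9% ± 0.23 over the genes' means. The members lay above the other genes by more than the spread between replicates, although their own spread was wide, from 0% to 80.8% with a middle range of 11.8% to 46.7%. Coverage above the median of all genes was found at 66 of 96 members, against 50% of all genes. Above the 75th percentile of all genes lay 42 members, against 25% of all genes, and above the 90th percentile 21 members, against 10%. The replicates ranked the members alike, with a Spearman correlation of 0.988 across genes, given as a description since both lists come from the same cells. For 61 of 96 members the replicates differed by an SD of less than 2 percentage points. The widest gaps were at Atp5c1, with 32.4% and 40.9%, and Ndufb6, with 26.9% and 34.7%.

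A replicated peak lay within 2 kb of the TSS at 92 of 96 members, or 95.8%, against 72.8% of all genes. In the single lists the count was 91 members for replicate 1 and 92 for replicate 2, against 74.2% and 73.1% of all genes. The 4 members without a replicated promoter peak were Cox7b2, Cox7a2, Cox7c and Ndufb4c. Cox7b2, a testis form of subunit VIIb, was the only member with no covered base in the whole window in either replicate, a state shared by 15.6% of all genes. Its nearest replicated peak was 108161 bp away. Ndufb4c, a 485 bp gene record that copies Ndufb4, had its nearest replicated peak at 16764 bp. Cox7a2, the general form of subunit VIIa, had it at 10749 bp from the 5' end of the gene record, but the RefSeq promoter table places its TSS 11569 bp inside that record, where peaks flanked it on both sides. Cox7c, a general subunit, lay just outside the limit with its nearest peak at 2029 bp in replicate 1 and 2060 bp in replicate 2. Just inside the limit were Ndufb4b at 1901 bp and Cox7b at 1305 bp in the replicated list.

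The mark took 1 arrangement at most of these promoters, peaks on both flanks and a gap over the TSS. Among the 78 members with an entry in the RefSeq promoter table, 69 had a replicated peak within 2 kb on each side and none on the TSS, or 88.5%, against 47.9% of 17492 genes. The TSS lay inside a replicated peak at 3 members, Cox7a1, Cox8b and Ndufa13, against 14.9% of all genes. A peak on the downstream side only was found at 4 members (Cox5a, Ndufa3, Ndufb4b and Uqcrc1), against 5.78%, and an upstream peak only at 0, against 3.17%. Neither side had a peak at 2 members, Cox7b2 and Cox7c, against 28.2%. Averaged over the 78 members, the 200 bp centred on the TSS were covered to 4.85% in replicate 1 and 3.40% in replicate 2. Coverage rose to 54.6% and 53.6% on the upstream side, in the bin that starts 1000 bp before the TSS. Downstream it reached 86.4% and 81.1%, in the bin that ends 1200 bp after it. Over all genes, with or without a peak, the gap was shallower, with 16.3% and 11.9% at the TSS, 40.3% and 35.1% upstream, and 46.3% and 41.9% downstream. Genes with CpG-rich promoters are set beside the members further below. The downstream 2 kb were covered more than the upstream 2 kb at 57 of 78 members, against 44% of all genes. Among genes with a covered base on either side, this was 57 of 76 members, or 75%, against 59.3%.

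**Figure D1:**
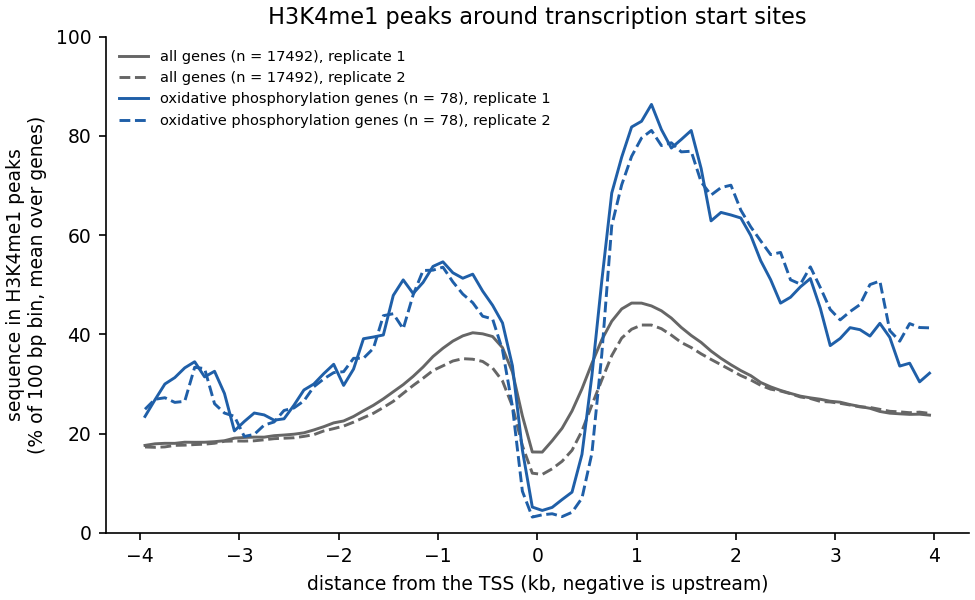
Percent of each 100 bp bin in H3K4me1 peaks (vertical axis, mean over genes) by distance from the TSS in kb (horizontal axis), for 78 oxidative phosphorylation genes and all 17492 genes with a promoter entry. Solid lines are replicate 1 and dashed lines replicate 2. The bins on either side of the members' TSS average 4.85% and 3.40% in the 2 replicates, which reach 86.4% and 81.1% downstream.

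The members' excess over all genes extended beyond the promoter. In the first 2 kb on each side of the TSS the median over members was 48.5% in replicate 1 and 45.0% in replicate 2, against 34.5% and 28.6% for all genes. From 2 to 5 kb it was 30.6% and 33.1%, against 11.8% and 11.5%. From 5 to 20 kb it was 20.2% and 20.4%, against 10.2% and 10.4%. The median window of a member held 11 peaks, against 7 for all genes, and its strongest peak had a median signal value of 8.58, against 7.49, in the authors' own unit. The strongest single peaks stood near Atp5b, with a signal value of 15.1, Ndufaf3, with 14.7, and Cox5b, with 13.6. The widest lay near Ndufa11, with 10509 bp, Cox4i1, with 9832 bp, and Cox5a, with 9533 bp.

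Complex I, the NADH dehydrogenase, had 37 members, a promoter peak at all 37 and a median coverage of 27.1% ± 2.73, with 27 members above the median of all genes. The 7 core subunits, which carry the flavin and the iron-sulfur clusters or bind quinone, were all above that median and had a median of 38.7% in replicate 1 and 45.0% in replicate 2. The 30 accessory subunits had a median of 24.5% and 26.5%, and 20 of them were above it. Ndufa13, an accessory subunit at chr8:69894163-69902558, had the highest coverage of complex I, with 78.2% in replicate 1 and 74.4% in replicate 2. Its window held 21 peaks in the replicated list, and its TSS was inside one, which sets it apart from the usual gap. Ndufa7, an accessory subunit whose TSS lies 10 bp from that of Rps28, had 61.6% and 64.9%. Ndufs7, a core subunit that holds the last iron-sulfur cluster before quinone, had 57.6% and 58.4%. At the other end stood Ndufa10, an accessory subunit, with 4.61% and 4.30%, and Ndufa12, another accessory subunit, with 3.64% and 6.24%. Both still had a promoter peak, and their windows held 2 and 5 peaks of the replicated list. Ndufa1 and Ndufb11, the accessory subunits on the X chromosome, had 6.84% and 4.71%, and 7.69% and 5.64%. These values are below the median of all genes but above that of the 953 genes on X, which was 0.675% ± 0.33.

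Complex II, the succinate dehydrogenase, has no mitochondrially encoded subunit and 4 genes, all with a promoter peak and a median of 25.4% ± 1.59. Sdhb, the iron-sulfur subunit, had 55.2% in replicate 1 and 53.0% in replicate 2. Sdhc, a membrane anchor, had 34.0% and 36.0%, and Sdhd, the other anchor, 14.5% and 17.0%. Sdha, the flavoprotein that oxidises succinate, had 6.81% and 7.11%. No replicate values overlapped between any of these 4 genes, and the catalytic pair Sdha and Sdhb took the lowest and the highest place.

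Complex III had the lowest median of the 5 complexes, 22.3% in replicate 1 and 18.7% in replicate 2. Over the means it was 20.5% ± 2.52 for 8 genes, all with a promoter peak. These leave out the gene of its subunit cytochrome c1, Cyc1, which the symbols do not match and which had 56.9% and 52.0%. Uqcr11, the smallest subunit, was far above the rest with 74.1% and 68.3%. Uqcr10, another small subunit, had 39.0% and 43.7%, and Uqcrc1, a core protein, 26.6% and 29.3%. Uqcrb, a subunit beside the quinone site, had 5.32% and 4.96%, and Uqcrc2, the other core protein, 4.88% and 4.21%. The core proteins Uqcrc1 and Uqcrc2, which form a pair in the complex, thus lay on opposite sides of its median.

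Complex IV, the cytochrome c oxidase, had the highest median, 39.1% in replicate 1 and 38.6% in replicate 2, or 39.1% ± 0.39 over 19 genes. It also held 3 of the 4 members without a promoter peak, which leaves 16 of 19. Its values fell into a high set and a low set, with 11 genes from 37.4% to 61.2% and 8 genes from 0% to 12.6%, and none between. The low set includes Cox7a2, whose window was centred on the 5' end of its gene record. From its promoter-table TSS, 3.83% of the 20 kb upstream and 30.3% of the 20 kb downstream were covered. Measured there, Cox7a2 would lie between the sets. Cox8a, the general form of the small subunit VIII, had 59.4% and 63.1%. Cox7a1, the muscle form of subunit VIIa, had 61.3% and 59.95%. Cox4i1, the general form of subunit IV, had 60.7% and 56.8%. These 3 overlapped in their replicate values and cannot be ordered. Lowest were Cox6a2, the muscle form of subunit VIa, with 1.31% and 0.435%, and Cox7b2, with 0% and 0%. Leaving the 8 tissue-specific isoforms out gave a median of 40.0% ± 1.95 over 11 genes.

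Complex V had a median of 27.0% ± 0.13 over 17 genes, all with a promoter peak, and 14 of them above the median of all genes. Its parts differed. The 5 subunits of F1, the catalytic head, had a median of 54.0% in replicate 1 and 57.9% in replicate 2, and the 4 peripheral stalk subunits 35% and 33.6%. The 3 genes for the c ring, which encode the same mature protein, had 20.5% and 23.8%, and the 5 small membrane subunits 12.1% and 11.9%. Atp5d, the delta subunit of F1 at chr10:80138698-80145828, had the highest coverage of all 96 members, with 81.7% and 79.9%, at percentile 99.7 of all genes. Atp5b, the catalytic beta subunit, had 59.8% and 60.3%, and Atp5h, a peripheral stalk subunit, 57.9% and 58.0%. Within F1 the range was nonetheless wide, down to 17.8% and 18.7% at Atp5e, the epsilon subunit. Atp5l, the small membrane subunit g, was lowest with 8.24% and 9.52%, followed by Atp5md, another small membrane subunit, with 9.09% and 10.3%. The difference among parts lay away from the promoter. From 5 to 20 kb the F1 genes had a median of 50.3% and 54.9% and the small membrane subunits 8.83% and 7.03%, whereas within 2 kb both were near each other, at 50.1% and 39.5% against 51.1% and 42.5%.

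The highest and the lowest complex medians differed by 18.6 percentage points ± 2.13, from complex IV to complex III. The ranges within each complex were wider than this in all 5. With 5 kb on each side in place of 20 kb, complex V was highest with 46.7% and complex IV lowest with 31.6%, so the order of the complexes did not hold in the narrower window.

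**Figure D2:**
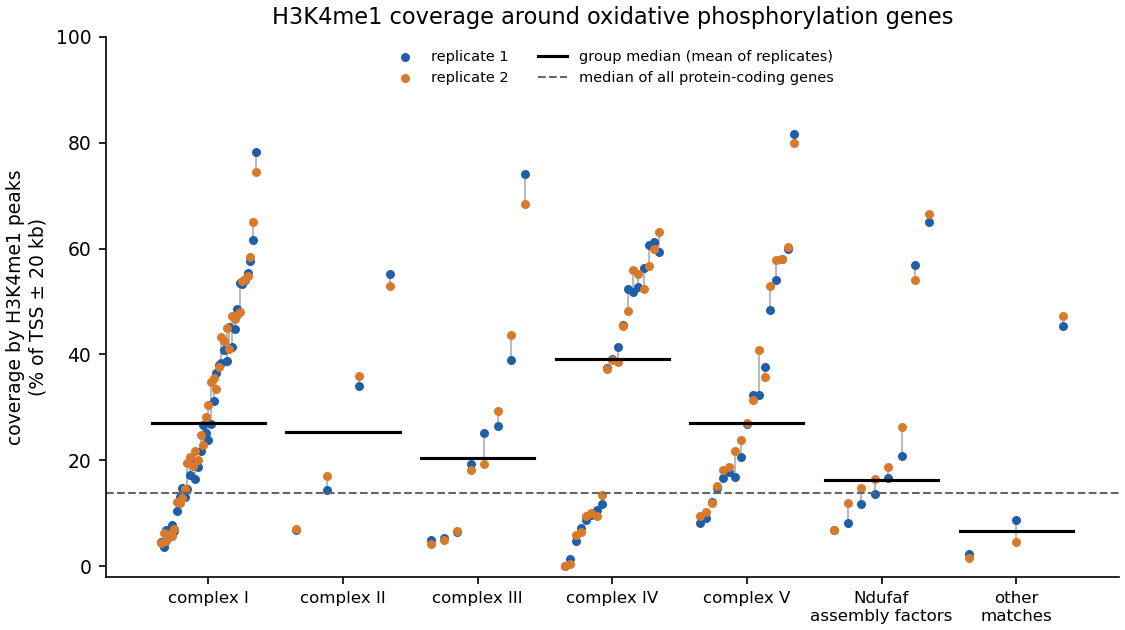
Coverage by H3K4me1 peaks (vertical axis, percent of TSS ± 20 kb) of each of the 96 members, grouped by complex, with replicate 1 in blue and replicate 2 in orange, joined by a grey line. Black bars are group medians and the dashed line is the median of all genes, 13.9%. With each TSS at the 5' end of the gene record, complex IV splits into a high set and a low set, while the other complexes fill the range between.

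Assembly factors help to build complex I and are not part of the finished enzyme. The 8 Ndufaf genes had a median of 15.1% in replicate 1 and 17.6% in replicate 2, and all 8 had a promoter peak. Ndufaf3 was highest with 64.9% and 66.5%, and Ndufaf4 lowest with 6.82% and 6.78%. Of the other matches, Cox7a2l, a factor of respiratory supercomplexes, had 45.3% and 47.2%. Ndufb4b and Ndufb4c, short gene records that copy Ndufb4, had 2.26% and 1.51%, and 8.76% and 4.55%. How uniquely reads map to such copies was not tested.

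The general and the tissue-specific forms of complex IV subunits were compared in 8 pairs, with Ndufa4l2 counted among the tissue-specific ones. Median coverage was 45.5% in replicate 1 and 45.4% in replicate 2 for the 7 general genes, and 38.3% and 38.1% for the 8 tissue-specific genes, a difference of 7.22 percentage points. Both lists held high and low genes. Above the 75th percentile of all genes lay 4 of 7 general and 5 of 8 tissue-specific genes, against 25% of all genes. The general form was higher in both replicates in 6 of 8 pairs, but the single differences ran from far below 0 to far above it. Cox6a1 had 45.5% and 45.4%, against the 1.31% and 0.435% of its muscle counterpart Cox6a2, a difference of 44.6 ± 0.52. Cox8a exceeded Cox8c, the testis form with 7.25% and 6.51%, by 54.3 ± 3.16. It exceeded Cox8b, the heart and muscle form with 39.1% and 39.0%, by 22.1 ± 2.71. The spread of these 3 differences was small beside their size. Cox6b1, with 51.8% and 56.0%, exceeded the testis form Cox6b2, with 37.5% and 37.2%, by 16.5 ± 3.19. Cox4i1 exceeded Cox4i2, the lung form with 52.4% and 48.1%, by 8.44 ± 0.31, and both genes of this pair were among the highly covered ones. On the X chromosome, Cox7b had 8.71% and 9.42%, and exceeded the uncovered Cox7b2 by 9.06 ± 0.50.

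Both remaining pairs ran the other way. Cox7a2, general, had 9.61% and 10.0%, and Cox7a1, the muscle form, 61.3% and 59.95%, a difference of -50.8 ± 1.24. This SD leaves out the choice of TSS, since Cox7a2 was measured from the 5' end of its gene record. From its promoter-table TSS, 3.83% of the 20 kb upstream and 30.3% of the 20 kb downstream were covered. The difference would be smaller there, in the same direction. Ndufa4, a subunit of complex IV despite its symbol, had 10.6% and 9.55%, and Ndufa4l2, its counterpart known for induction by low oxygen, 56.3% and 52.3%, a difference of -44.2 ± 2.06. In both pairs the replicates did not overlap. Measured 5 kb or 50 kb on each side, the general form was higher in 5 of 8 pairs.

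**Figure D3:**
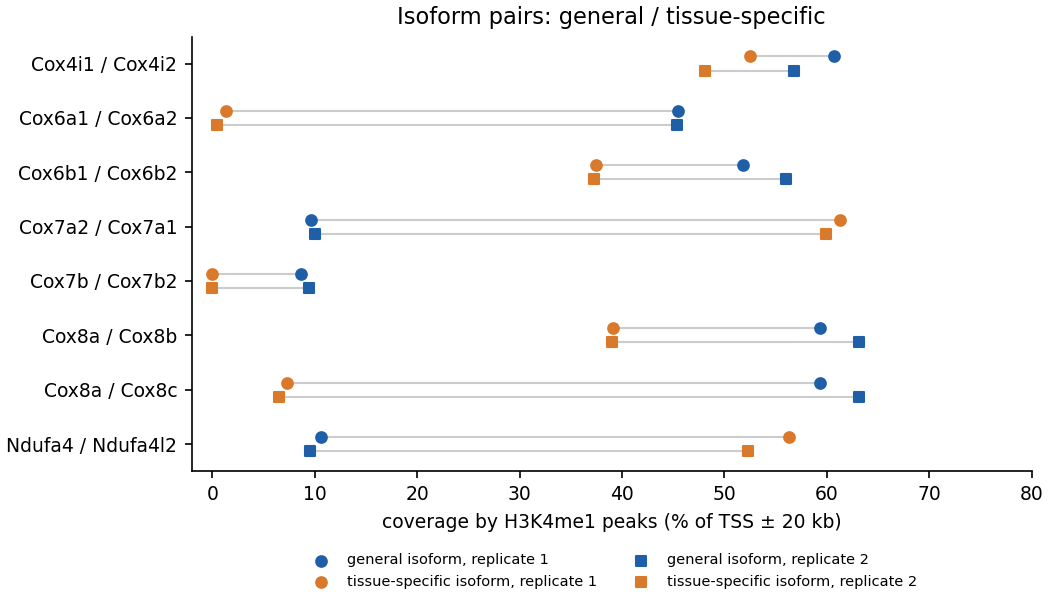
Coverage by H3K4me1 peaks (horizontal axis, percent of TSS ± 20 kb) for 8 pairs of general (blue) and tissue-specific (orange) isoforms, with circles for replicate 1 and squares for replicate 2. The general form lies to the right in 6 pairs and to the left for Cox7a2 with Cox7a1 and Ndufa4 with Ndufa4l2.

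General and tissue-specific genes also differed in where the peaks lay. In the 250 bp on each side of the TSS, general promoters were largely free of the mark, and several tissue-specific ones were covered through. Coverage of these 500 bp was 93.1% at Cox7a1, 86.4% at Cox8b, 100% at Cox4i2 and 100% at Cox8c, as means of the replicates. It was 28.3% at Cox6a2, 12.6% at Cox6b2, 11.7% at Ndufa4l2 and 0% at Cox7b2. Among the general forms it was 0% at Cox8a, Cox4i1, Cox6a1, Ndufa4 and Cox7b, 25.8% at Cox6b1, and 22.2% at the promoter-table TSS of Cox7a2. Over all 78 members with a promoter entry the median was 0%, as it was over all 17492 promoters. The general Cox4i1 and the tissue-specific Cox4i2, Cox8c, Cox6a2 and Ndufa4l2 have no promoter entry, and their TSS is the 5' end of the gene record.

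The sequences before the TSS are shown for 5 genes to set CpG content beside the mark: the general Cox8a and Cox7a2, their muscle counterparts Cox8b and Cox7a1, which are covered at the TSS, and Cox7c, which had no promoter peak. Both pairs have more CpGs in the general form, but the pair Cox7b and Cox7b2, not shown, runs the other way, with a CpG ratio (observed over expected) of 0.368 in the general and 0.564 in the tissue-specific form. Each is the 250 bp upstream of the RefSeq TSS on GRCm38.p6, written 5' to 3' on the strand of the gene, with every CpG in capitals. Cox8a (chr19:7217617-7217866, minus strand) has 11 CpGs and Cox8b (chr7:140900447-140900696, minus strand) 1. Cox7a2 (chr9:79759854-79760103, minus strand) has 14, Cox7a1 (chr7:30183921-30184170, plus strand) 4 and Cox7c (chr13:86046796-86047045, minus strand) 9.
Cox8a: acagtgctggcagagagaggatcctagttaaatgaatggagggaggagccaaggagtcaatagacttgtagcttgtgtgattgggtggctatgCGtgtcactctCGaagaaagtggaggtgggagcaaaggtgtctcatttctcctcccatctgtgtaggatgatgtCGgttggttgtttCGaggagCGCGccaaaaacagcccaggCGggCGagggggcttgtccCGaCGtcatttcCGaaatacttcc
Cox8b: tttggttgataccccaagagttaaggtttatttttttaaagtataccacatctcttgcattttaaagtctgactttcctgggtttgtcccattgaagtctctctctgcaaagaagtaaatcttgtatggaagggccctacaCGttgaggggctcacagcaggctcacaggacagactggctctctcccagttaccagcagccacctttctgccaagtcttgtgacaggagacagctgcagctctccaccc
Cox7a2: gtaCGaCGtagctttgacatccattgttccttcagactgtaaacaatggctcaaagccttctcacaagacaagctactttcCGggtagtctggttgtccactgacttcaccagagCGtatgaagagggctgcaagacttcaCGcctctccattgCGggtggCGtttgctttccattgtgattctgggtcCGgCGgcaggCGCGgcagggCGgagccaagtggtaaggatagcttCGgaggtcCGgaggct
Cox7a1: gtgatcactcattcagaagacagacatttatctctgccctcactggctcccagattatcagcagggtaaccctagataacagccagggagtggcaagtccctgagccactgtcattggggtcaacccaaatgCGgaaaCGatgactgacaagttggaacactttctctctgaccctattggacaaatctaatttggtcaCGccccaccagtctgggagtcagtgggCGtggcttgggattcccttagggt
Cox7c: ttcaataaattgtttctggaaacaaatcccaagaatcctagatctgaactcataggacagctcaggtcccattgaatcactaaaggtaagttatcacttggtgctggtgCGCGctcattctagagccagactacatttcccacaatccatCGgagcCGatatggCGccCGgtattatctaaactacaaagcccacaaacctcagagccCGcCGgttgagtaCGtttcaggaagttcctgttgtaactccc

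In the 300 bp promoters of the RefSeq table, 250 bp before and 50 bp after the TSS, the median CpG ratio (observed over expected) was 0.831 for the members and 0.576 for all genes. The 4 tissue-specific isoforms with an entry had a median of 0.382. To compare members with genes of like promoters, all 17492 promoters were divided into 3 equal classes by this ratio. In the class richest in CpG, 47 members and all 5831 genes had the same median coverage, 23.3% each. A replicated promoter peak was present at 95.7% of these members, against 96.6% of these genes. So in this class neither coverage nor the presence of a peak set the members apart. Peaks on both flanks with a free TSS were found at 45 of the 47, or 95.7%, against 87% of the class. The 200 bp centred on the TSS were covered to 1.03% and 0% in replicates 1 and 2 at these members, against 3.25% and 1.19%. Downstream the highest bin reached 85.6% and 83.9%, against 70.7% and 65.8%. A deep gap was thus shared by the genes of this class. In the middle class, 30 members had a median of 26.8%, against 16.8%, and 24 of them, or 80.0%, had the flanked arrangement, against 53.3%. Only Cox8b lay in the CpG-poor class, with a coverage of 39.1% against a class median of 0.869%.

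Many members share their promoter region with another gene. A TSS on the opposite strand, pointing away within 1 kb, was found at 30 of 96 members, or 31.2%, against 6.88% of all genes. Several partners encode parts of the protein synthesis or mitochondrial machinery. Ndufa7 lies beside Rps28, Ndufs1 beside Eef1b2 at 9 bp, Ndufs6 beside Mrpl36 at 21 bp, Ndufb5 beside Mrpl47 at 302 bp, and Sdhd beside Timm8b at 52 bp. Their median coverage was below that of the other members. The 30 members had a median of 19.3% in replicate 1 and 21.8% in replicate 2, against 24.0% and 25.5% for all 1480 such genes. The 66 members without such a partner had 25.9% and 27.6%, against 13.1% and 12.6%. In the CpG-rich class, 42.6% of members and 13.9% of genes had such a partner.

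Coverage also moved with the number of genes in the window. The 22 members with no other protein-coding TSS within 20 kb had a median of 11.1%, against 8.41% for all such genes. With 1 to 2 other TSSs, 64 members had 29.4%, against 19.9%, and with 3 or more, 10 members had 46.7%, against 40.2%. The members' median was thus above that of genes with like numbers of neighbours in each of the 3 classes, but by fewer points than without such classes. Across the members, Spearman's rho between coverage and the number of other TSSs was 0.406, and across all genes 0.290. These are descriptions across genes of the same libraries. Of the covered bases in the members' windows, 27.0% lay in the member's own gene body, against 39.4% over all genes. Another 46.6% lay in the bodies of other genes, against 30.7%, and 26.4% outside genes, against 29.9%. Coverage near a member is thus not a property of that gene alone. The members are short genes, with a median length of 7228 bp against 17242.5 bp. What part neighbours, gene length or CpG content have in the members' coverage was not tested.

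**Figure D4:**
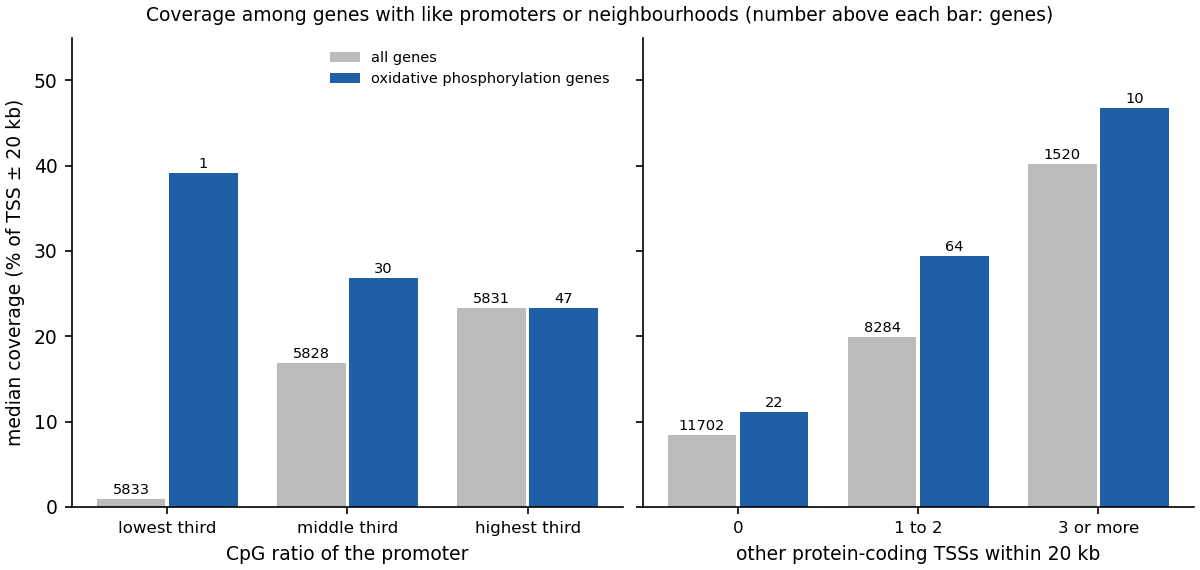
Median coverage (vertical axis, percent of TSS ± 20 kb) of all genes (grey) and oxidative phosphorylation genes (blue), by CpG ratio of the promoter in 3 equal classes (left) and by the number of other protein-coding TSSs within 20 kb (right), with the number of genes above each bar. In the CpG-rich class both bars stand at 23.3%, and the CpG-poor class holds a single member, Cox8b.

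Some highly covered members lie close together. On chromosome 10, Atp5d at chr10:80138698-80145828, Ndufs7 at chr10:80249105-80256794 and Uqcr11 at chr10:80402997-80406821 follow each other, with mean coverages of 80.8%, 58.0% and 71.2%. The TSSs of Atp5d and Ndufs7 are 110407 bp apart. Ndufs8 and Ndufv1 on chromosome 19 are 99981 bp apart, with 55.2% and 37.9%. No windows of 2 members overlapped, so no covered base was counted for more than 1 member.

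Promoters of respiratory genes are known for binding sites of NRF1, of the ETS factor GABP and of YY1, and of the estrogen-related receptors. The letters TGCGCA, the core of the NRF1 site, were found on either strand in 19 of 78 member promoters, or 24.4%, against 10.1% of all promoters. For CCGGAAG, an ETS motif, the count was 18, or 23.1%, against 11.9%. YY1's ATGGCGG was found in 11, or 14.1%, against 5.41%, and AAGGTCA, of the estrogen-related receptors, in 8, or 10.3%, against 4.08%. None of these motifs contains another, and 42 members held at least 1 of them, or 53.8%, against 27.0%. GGGCGG, a general motif of SP and KLF factors, was as frequent in members, at 44.9%, as in all promoters, at 46.3%. In the CpG-rich class the shares came closer, with TGCGCA in 23.4% of members and 18.9% of genes, and CCGGAAG in 23.4% and 21.8%. None of the 4 tissue-specific promoters held any of the first 4 motifs.

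The motif matches lay mostly outside the peaks. The search spanned only 250 bp before to 50 bp after the TSS, where most members had the gap. A low share in peaks therefore restates the gap and says nothing more about the motifs. The other promoters were not matched for it. No TGCGCA of the 19 member promoters was inside a peak of either replicate, against 11.7% of the other promoters that hold it. A CCGGAAG inside a peak was found at 1 of 18 members, Uqcr11, against 9.31%, and an ATGGCGG at 0 of 11, against 6.52%. For AAGGTCA it was 2 of 8 members, against 28.5%. Matches are given for 5 promoters as 30-base windows of the gene's strand on GRCm38.p6, from RefSeq, with the motif in capitals. First come TGCGCA at Sdhd (chr9:50604021-50604050), Cox6a1 (chr5:115349059-115349088) and Atp5l (chr9:44920962-44920991), which start 189, 118 and 237 bases before the TSS.
Sdhd: catcctcgtaccTGCGCAgtgaattgcgcc
Cox6a1: ggacggataaagTGCGCAggcgctggagtt
Atp5l: accaataacgcaTGCGCAtttcccccactt
Then come CCGGAAG or its complement CTTCCGG at Cox8a (chr19:7217604-7217633), Sdhd (chr9:50603878-50603907) and Uqcr11 (chr10:80406870-80406899), which start 5, 46 and 66 bases before the TSS.
Cox8a: atttccgaaataCTTCCGGctcgggcgtcc
Sdhd: accgtctcctgcCTTCCGGttcacgcttca
Uqcr11: tttctctcctccCCGGAAGtagatgtcaat
Atp5l and Sdhd are among the less covered members and Uqcr11, Cox8a and Cox6a1 among the more covered, so matches occurred at both ends. A match is a run of letters and not a measured binding site.

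Genes of the same pathway that the symbols do not match were read the same way. Cyc1, which encodes cytochrome c1, a subunit of complex III, had 56.9% in replicate 1 and 52.0% in replicate 2. Cyct, the testis cytochrome c, had 14.7% and 8.72%, and Cycs, the general cytochrome c, 1.87% and 1.31%. All 3 had a promoter peak, and the general cytochrome c was the less covered of the pair. The 31 assembly factors with other symbols had a median of 24.6% ± 0.25, with a promoter peak at all 31 and 19 above the median of all genes. Uqcc2, a complex III assembly factor, was highest with 65.2% and 66.5%, then Cox19, a complex IV assembly factor, with 59.5% and 57.4%, and Sdhaf3, a complex II assembly factor, lowest with 1.09% and 1.09%. The 13 regulators of respiratory genes had a median of 32.1% ± 1.01 and a promoter peak at 12, all but Gabpb1, which encodes a subunit of GABP. Pprc1, a coactivator of the PGC-1 family, had 71.3% and 71.9%, and Esrra, an estrogen-related receptor, 52.7% and 51.2%. Ppargc1a, the coactivator best known from muscle and brown fat, was lowest with 9.17% and 6.28%. The muscle marker Ckm had 61.6% and 52.4%, so a high value at Cox7a1 was not alone among muscle genes, while Actn2, with 12.97% and 13.5%, and Myh7, with 15.0% and 10.4%, were near the median of all genes.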

How the data were processed

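H3K4me1 ChIP-seq of 2 biological replicates of E14TG2a.4 cells was analysed. Per the read-me lists, mm10 peaks were deposited by the authors as narrowPeak lists (replicate 1, replicate 2, both pooled, and those kept as replicated), and mm9 peaks as broadPeak lists. Which aligner and caller made them is not given in the sources used here. Each mm10 peak has, as deposited, a signal value and the −log10 of its p and q. Each mm9 peak has a signal value with an untransformed p-value and q-value, as deposited. Those values are the authors' own and were used only to describe or filter peaks within a list. The read-me lists name 1 source file of unstated role for replicate 2 and the pool that is absent from replicate 1. Read counts are in none of the lists; depth is therefore unknown, and counting intervals were not computed.

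Gene records came from a RefSeq table of GRCm38.p6 with 21887 protein-coding genes. Strands came from the RefSeq promoter table for 17492 genes and from GENCODE vM1 for 4014. The remaining 381 genes, none a member, were left out. Each TSS was set at the start of the record on the strand of the gene, but flank patterns, the profile, CpG ratios and motifs used the promoter table, with 78 of 96 members. Coverage was the percent of TSS ± 20 kb in peaks. Complexes were assigned from textbook knowledge, with Ndufa4 and Ndufa4l2 in complex IV. Named were the 3 highest and 2 lowest subunit genes of each complex (all 4 of complex II), all isoform pairs, members without a replicated peak within 2 kb, members on X, the highest and lowest Ndufaf gene, and the 2 highest and the lowest gene of each related list. Members named for other extremes were chosen after their values were seen. The members and lists were chosen with earlier results of these data known. The coverage function was tested on simulated data. With 1 group of 2 replicates, no test was run and SDs describe these 2 libraries. Alternatives were other windows, distances, peak lists and thresholds, each replicate left out, and autosomal genes or subunit genes only. Another TSS table, another place for Ndufa4 and leaving out tissue-specific isoforms were added after the data were seen. Versions were matplotlib 3.10.9, pandas 2.3.3, numpy 2.4.6, scipy 1.17.1 and Python 3.11.15. A result on 1 member is not reported here.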

Additional observations from a re-analysis of the deposited data

How the results depend on the processing

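The members' median coverage of 25.7% stayed above that of all genes in every setting run. It was 39.4% (all genes 21.1%) with 5 kb on each side, 24.0% (12.7%) with 50 kb, 30.8% (17.4%) with the pooled list, 28.0% (15.7%) with the replicated list, 46.3% (24.2%) with the mm9 lists, 27.0% (15.3%) for autosomal genes and 27.1% for subunit genes only. The range of the complex medians, 18.6 points, was 15.1 with 5 kb, 22.2 with the pooled list, 21.1 with the replicated list and 26.9 with the mm9 lists. Complex IV was highest and complex III lowest in all settings except 5 kb. The difference between general and tissue-specific medians, 7.22 points, was 10.8 with 5 kb, 5.53 with 50 kb, 7.38 with a −log10 q of at least 2, 8.70 with the pooled list, 8.35 with the replicated list, and 11.4 both with the mm9 lists and for autosomal genes. Leaving out each replicate gave medians of 25.2% to 26.6%, ranges of 16.9 to 19.9 points and isoform differences of 7.18 to 7.25 points. A promoter peak was then present at 91 to 92 of 96 members, against 73.1% to 74.2% of all genes. That count was 90 to 93 in every setting run, against 69.4% to 76.1% of all genes. It was out of 96 members, except with the mm9 lists, where it was 90 of 93. The cause of these shifts was not tested. No paired analysis was possible because the series has 1 group. Depth is unknown, and the TSS of 18 members rests on the gene record alone.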

Other observations

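At some members the mark was uneven between the 20 kb on either side of the TSS. These genes were chosen after their values were seen. Ndufb7, an accessory subunit of complex I, was covered to 87.1% downstream and 4.42% upstream, as means of the replicates. Ndufa4l2 had 90.3% downstream and 18.2% upstream, and Ndufb5, another accessory subunit of complex I, 76.4% and 12.3%. Ndufaf3 ran the other way, with 84.4% upstream, across its neighbour Dalrd3, and 47.0% downstream.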
